A study of Mus musculus with 12 samples.

Results

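The genes described here are 10 markers of the cells that line blood and lymph vessels, taken by symbol from the platform annotation: Eng, Vwf, Plvap, Lyve1, Pecam1, Cdh5, Kdr, Flt1, Tek and Emcn. They are 10 of 22180 genes with a named probe set, and each had 1 probe set that carried its symbol alone. They were measured in laser-captured stroma and tumor of mouse colorectal tumors induced with azoxymethane, a carcinogen, and dextran sulfate, an irritant of the colon. The groups, of 3 arrays each, were Stat3dm stroma, Stat3dm tumor, Stat3wt stroma and Stat3wt tumor. Stat3dm mice carried a conditional deletion of the transcription factor STAT3 in myeloid cells, the lineage of macrophages and granulocytes, and Stat3wt mice were wild type. Both genotypes received both agents, and no group without tumors was analysed here. The labels name neither the Cre driver of the deletion nor the strain, age or sex of the mice. Each sample pooled 2 tumors of 1 mouse, and its 50 ng of RNA came from paraffin-embedded tissue. The study asked which stromal changes depend on STAT3 in myeloid cells.

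Endothelial cells form the inner wall of every vessel. Their growth is driven largely by vascular endothelial growth factor (VEGF), which binds receptor tyrosine kinases on the endothelial surface, while angiopoietins acting through the receptor Tie2 steady the mature vessel. In tumors the vessels run mainly in the stroma between the nests of tumor cells, and they carry in oxygen and leukocytes.

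All values below are levels on the log2 scale as the authors deposited them, or differences between such levels, so that a difference of 1 is a doubling of the signal. The median of an array ranged from 4.20 to 4.43, and its standard deviation (SD) over probe sets from 1.60 to 1.91. The widest arrays were Stat3dm tumor 3 (1.85) and Stat3wt tumor 3 (1.91). No 2 arrays held identical values. Stat3 itself averaged 7.36 ± 0.04 in Stat3dm stroma and 7.35 ± 0.65 in Stat3wt stroma, and 7.44 ± 0.47 in Stat3dm tumor and 7.71 ± 0.44 in Stat3wt tumor (SD, n = 3 each). Myeloid cells are a part of each sample, so this level does not check the labels. The tissue labels were set against marker genes of epithelium, which should be richer in tumor. Of 14 tested epithelial genes, 14 had a lower mean in stroma over both genotypes, and 7 passed the test described below. One stroma array overlapped tumor in this respect: the mean of the epithelial genes was 8.49, 7.14 and 7.97 in the Stat3dm stroma arrays 1 to 3 and 8.51 to 9.13 in Stat3dm tumor, against 7.40 to 7.85 in Stat3wt stroma and 8.33 to 9.01 in Stat3wt tumor. Stat3dm stroma 1 thus lay above the lowest Stat3wt tumor array. For the vessel genes, 3 results are also given without it. These are the calls over both genotypes, the median difference in Stat3dm mice and the median genotype difference in stroma. Most counts of signs and of arrays that did not overlap are given only with it. Most differences between genotypes in the other lists are given only with it. With 3 arrays a group, their number limits the precision.

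Stroma and tumor were first compared over both genotypes, 6 arrays against 6, in limma, with 4 group means and Benjamini-Hochberg adjustment over 16635 genes. The 10 vessel genes all had a higher mean in stroma, with log2 differences from 0.28 for Flt1 to 0.89 for Plvap, that is 1.22-fold to 1.86-fold. Of the 9 genes bright enough to be tested, 4 passed at an adjusted p under 0.05: Plvap, Vwf, Eng and Lyve1. In that comparison 0.848% of all tested genes were called higher, 1.71% lower and 2.55% in either direction (425 genes, 141 higher and 284 lower). The median difference of the 9 vessel genes was 0.58, against -0.03 for all tested genes, and the share of all tested genes above 0 was 47%. In tissue of mixed cells, fewer endothelial cells and less RNA per endothelial cell cannot be told apart.

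**Figure D1:**
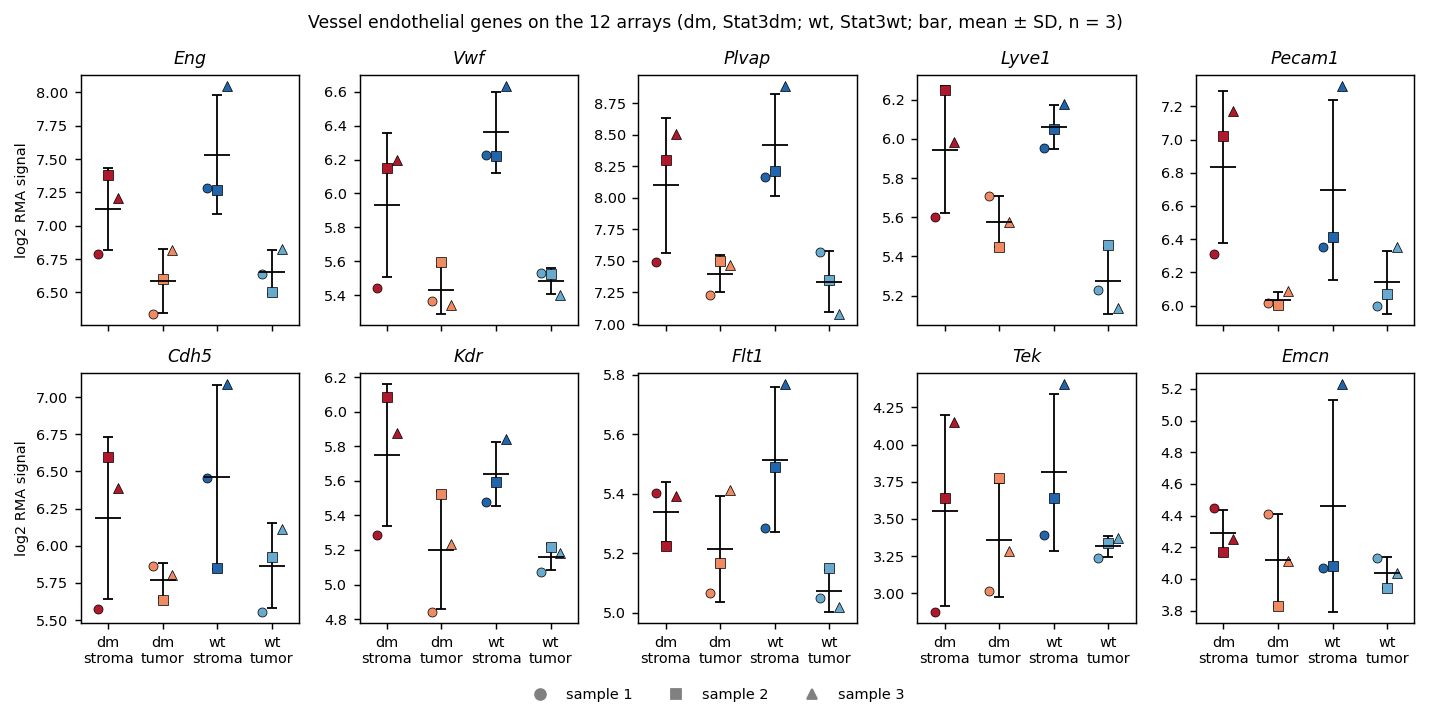
Log2 level (vertical axes) of each of the 10 vessel genes on each of the 12 arrays, as points grouped as Stat3dm stroma, Stat3dm tumor, Stat3wt stroma and Stat3wt tumor, with the mean of each group ± SD as bars. Both stroma means lie above both tumor means for each of the 10 genes, and Stat3wt stroma 3 is the highest array for 8 of them.

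Plvap encodes the protein of the diaphragms that span the small openings of fenestrated and leaky endothelium. Its level was 7.50, 8.30 and 8.50 in Stat3dm stroma and 7.23, 7.50 and 7.47 in Stat3dm tumor, against 8.17, 8.21 and 8.89 in Stat3wt stroma and 7.08 to 7.57 in Stat3wt tumor. Stat3dm stroma 1 overlapped tumor, and the other 5 stroma arrays were above every tumor array. Over both genotypes Plvap averaged 8.26 ± 0.46 in stroma and 7.37 ± 0.18 in tumor (SD, n = 6 each). The difference was 0.89 ± 0.19 (SE; 95% confidence interval 0.48 to 1.31), with an adjusted p of 0.0361 in limma. It was the largest of the 10 differences.

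Vwf encodes von Willebrand factor, the adhesive protein that endothelium stores and releases to capture platelets. Its level was 5.44, 6.15 and 6.20 in Stat3dm stroma and 5.36, 5.60 and 5.34 in Stat3dm tumor. In Stat3wt mice it was 6.23, 6.22 and 6.63 in stroma, against 5.53, 5.53 and 5.40 in tumor. The same Stat3dm stroma array was again the one that fell among the tumor arrays, while the other 5 stroma arrays were higher than all 6 tumor arrays. The means were 6.15 ± 0.39 in stroma and 5.46 ± 0.11 in tumor (SD, n = 6 each), a difference of 0.69 ± 0.16 (SE; interval 0.35 to 1.02) with an adjusted p of 0.0391 in limma. Platelets also carry von Willebrand factor. The 6 tested platelet genes had a median difference of 0.28, with 6 above 0 and 0 called, and the mean of that list ran from 4.83 to 5.03 in Stat3dm stroma, 4.57 to 4.78 in Stat3dm tumor, 5.01 to 5.37 in Stat3wt stroma and 4.35 to 5.14 in Stat3wt tumor. The part of platelets in the Vwf result was not tested.

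Eng encodes endoglin, a co-receptor for proteins of the transforming growth factor beta family on dividing endothelium. Its level was 6.79, 7.38 and 7.21 in Stat3dm stroma and 6.34, 6.60 and 6.82 in Stat3dm tumor, against 7.28, 7.27 and 8.05 in Stat3wt stroma and 6.64, 6.50 and 6.82 in Stat3wt tumor. Only Stat3dm stroma 1 lay within the tumor range. Eng averaged 7.33 ± 0.41 in stroma and 6.62 ± 0.19 in tumor (SD, n = 6 each), a difference of 0.71 ± 0.17 (SE; interval 0.34 to 1.08) with an adjusted p of 0.0464 in limma.

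Lyve1 encodes a hyaluronan receptor of lymphatic endothelium, which some tissue macrophages carry as well. It had 5.60, 6.25 and 5.98 in Stat3dm stroma and 5.71, 5.45 and 5.57 in Stat3dm tumor, against 5.95, 6.05 and 6.18 in Stat3wt stroma and 5.23, 5.46 and 5.14 in Stat3wt tumor. The Stat3wt arrays did not overlap between the tissues, and in Stat3dm mice 1 tumor array exceeded 1 stroma array. Lyve1 averaged 6.003 ± 0.23 in stroma and 5.43 ± 0.21 in tumor (SD, n = 6 each), a difference of 0.58 ± 0.14 (SE; interval 0.27 to 0.88) with an adjusted p of 0.0484 in limma. Of 12 tested macrophage genes, 11 had a higher mean in stroma, with a median of 0.78 and 1 called. The mean of the macrophage list ran from 6.66 to 7.09 in Stat3dm stroma, 5.69 to 6.06 in Stat3dm tumor, 5.71 to 7.28 in Stat3wt stroma and 5.79 to 6.26 in Stat3wt tumor, and its part in the Lyve1 result was not tested.

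The other 5 tested genes had adjusted p-values above the threshold in the fit without a block. Among them are both proteins of endothelial cell contacts. Pecam1, an adhesion molecule of those contacts that leukocytes and platelets also carry, had 6.31, 7.02 and 7.17 in Stat3dm stroma and 6.02, 6.001 and 6.09 in Stat3dm tumor. In Stat3wt mice it had 6.35, 6.41 and 7.32 in stroma and 5.99, 6.07 and 6.35 in tumor. The tissues were apart in Stat3dm mice. In Stat3wt mice the lowest stroma array, at 6.352, and the highest tumor array, at 6.351, nearly met. The difference over both genotypes was 0.68 ± 0.20 (SE), with an adjusted p of 0.0739 in limma. With genotype and sample number together as a block, Pecam1 passed (adjusted p = 0.0180 in limma with a fixed block and 0.0252 with a random one). The labels do not say that a number marks 1 mouse, and pairing by number was not shown. Cdh5, or VE-cadherin, the adhesive core of the endothelial adherens junction, had 5.57, 6.60 and 6.39 in Stat3dm stroma and 5.86, 5.64 and 5.80 in Stat3dm tumor, against 6.45, 5.85 and 7.09 in Stat3wt stroma and 5.56, 5.93 and 6.11 in Stat3wt tumor. Stroma and tumor overlapped in both genotypes, and the difference was 0.51 ± 0.22 (SE; adjusted p = 0.195 in limma).

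The receptor kinases also had higher means in stroma. Kdr, the main signalling receptor for VEGF, had 5.29, 6.08 and 5.88 in Stat3dm stroma and 4.84, 5.52 and 5.23 in Stat3dm tumor, against 5.48, 5.60 and 5.84 in Stat3wt stroma and 5.07, 5.22 and 5.18 in Stat3wt tumor. The tissues were apart in Stat3wt mice and overlapped in Stat3dm mice, and the difference was 0.52 ± 0.17 (SE; adjusted p = 0.101 in limma). With the same block Kdr passed too (adjusted p = 0.0266 fixed and 0.0350 random in limma), and 6 of the 9 genes were then called. The block also raised the count over all 16635 genes from 425 (141 higher). It became 1876 (513 higher) with the fixed block and 1648 (478 higher) with the random one. Flt1, a VEGF receptor that binds the ligand tightly and signals weakly, lay between 5.22 and 5.77 in stroma (median 5.40) and between 5.02 and 5.41 in tumor (median 5.11). Its difference was 0.28 ± 0.13 (SE; adjusted p = 0.230 in limma). Tek, which encodes the angiopoietin receptor Tie2, was among the dimmest 25% of genes, with 22.3% of genes at or below its mean, and was tested only in a fit with no filter on dim genes. It ran from 2.88 to 4.41 in stroma (median 3.64) and from 3.01 to 3.78 in tumor (median 3.31), a difference of 0.35 ± 0.23 (SE; adjusted p = 0.400 in limma). Emcn, the sialomucin endomucin of capillaries and veins, ran from 4.07 to 5.23 in stroma (median 4.21) and from 3.83 to 4.41 in tumor (median 4.08), a difference of 0.30 ± 0.20 (SE; adjusted p = 0.376 in limma). Its highest value belonged to Stat3wt stroma 3 alone, and the other 5 stroma arrays lay within or just above the tumor range.

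**Figure D2:**
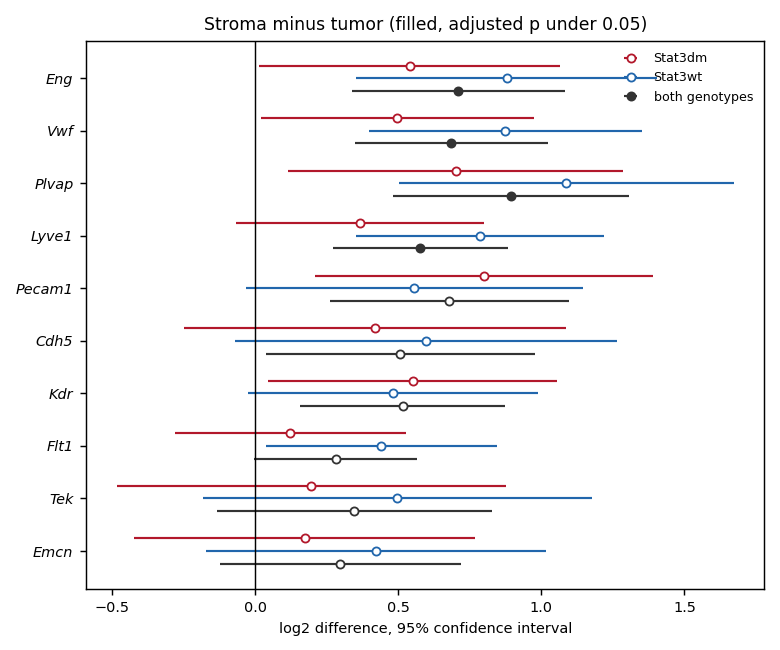
Log2 difference, stroma minus tumor (horizontal axis), of the 10 vessel genes in Stat3dm mice, in Stat3wt mice and over both genotypes, as points with 95% confidence intervals. The points over both genotypes lie between 0.28 and 0.89, and the filled ones mark the 4 genes with an adjusted p under 0.05.

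The calls over both genotypes changed when single arrays were left out, while the direction did not. With each array left out in turn, 0 of 9 vessel genes passed without Stat3dm stroma 2 or 3, Stat3dm tumor 2 or 3, Stat3wt stroma 2 or 3, or Stat3wt tumor 1 or 3, and the smallest adjusted p of a vessel gene was then 0.0505 to 0.106 in limma. Without Stat3wt stroma 1 only Plvap passed, without Stat3wt tumor 2 there were 3, without Stat3dm tumor 1 there were 4, and without Stat3dm stroma 1 there were 6, Pecam1 and Kdr being added. The count over all genes ran from 0 to 1296 in the same fits. It was 0 without Stat3dm tumor 2, Stat3dm tumor 3 or Stat3wt stroma 3. The difference stayed above 0 for all 9 tested genes in every one of these fits, which did not include Tek. At an unadjusted p under 0.05, 7 of the 9 tested vessel genes were higher, against 7.11% of all genes. Scaling moved the split of the calls over all genes, to 32 higher and 136 lower with each array centred on its median and to 244 higher and 189 lower after quantile normalization. Of the 9 vessel genes 0 passed with centred arrays and 5 after quantile normalization.

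Within each genotype, 3 arrays stood against 3. In Stat3dm mice the differences ran from 0.12 for Flt1 to 0.80 for Pecam1, with a median over the 9 tested genes of 0.50, against -0.03 for all genes. Limma called 0 of the 9, and 0% of all genes, with adjusted p-values of 0.366 to 0.921. At an unadjusted p under 0.05 there were 5 vessel genes, against 4.08% of all genes called higher. Pecam1, at 1.74-fold, was the 1 gene of the 10 whose arrays did not overlap, a pattern that 6.57% of all genes showed in that direction. In 8 of the 10 genes the spread was larger in Stat3dm stroma than in Stat3dm tumor, and the median SD over the 10 genes was 0.42 in stroma and 0.16 in tumor. Stat3dm stroma 1 was the lowest of the 3 stroma arrays in most genes, and without it the median difference was 0.73. Stat3dm stroma 2 and 3 were above every Stat3dm tumor array for Plvap, Vwf, Eng, Lyve1, Pecam1, Cdh5 and Kdr. For Flt1, Tek and Emcn they were not. The share of all genes with that pattern was not computed. With the sample number as a block, limma called 152 genes in this comparison and 0 of the 9 vessel genes.

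In Stat3wt mice the same 10 differences ran from 0.42 for Emcn to 1.09 for Plvap, which is 2.13-fold. The median over the 9 tested genes was 0.60, against -0.04 for all genes. Limma called 0 of the 9, and again 0% of all genes, with adjusted p-values from 0.185 to 0.398. At an unadjusted p under 0.05 there were 5, against 5.12% of all genes called higher. In 8 of the 10 genes there was no overlap between the tissues, Cdh5 and Emcn being the exceptions and Pecam1 apart by the last printed digit, while 8.88% of all tested genes lay apart in that direction. The median SD was 0.43 in Stat3wt stroma and 0.13 in Stat3wt tumor.

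Whether the tissue difference depended on genotype was tested as an interaction, the Stat3dm difference minus the Stat3wt difference. It ran from -0.42 for Lyve1 to 0.24 for Pecam1 and was below 0 for 8 of the 10 genes, while 52.5% of all tested genes lay above 0. Without Stat3dm stroma 1 Cdh5 turned to 0.13, the only change of sign among the 9 tested genes. Limma called 0 of the 9 tested genes and 0% of all genes, and at an unadjusted p under 0.05 there were 0 of the 9 and 401 of all genes. The adjusted p of each tested vessel gene was 0.995. The intervals were wide: for Lyve1 it ran from -1.03 to 0.19, and for Plvap, with an interaction of -0.39, from -1.21 to 0.44. Tissue differences of unequal size in the 2 genotypes were therefore not shown, and a value of -1 lay within both of these intervals.

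Next, vessel genes outside the 10 were read from lists of related function. Among transcription factors of endothelial cells, 14 of 15 tested genes had a higher mean in stroma over both genotypes, with a median of 0.43, and 3 passed the test. These were Klf2, which responds to blood flow, and the ETS factors Erg and Ets1, which act on many endothelial promoters. Klf2 had 7.89, 8.17 and 7.83 in Stat3dm stroma and 6.60, 6.99 and 6.56 in Stat3dm tumor, against 7.23, 7.39 and 7.50 in Stat3wt stroma and 6.78, 6.91 and 5.90 in Stat3wt tumor. All 6 stroma arrays were above all 6 tumor arrays, and the difference was 1.04 (adjusted p = 0.0249 in limma). Erg had 5.48, 5.81 and 5.78 in Stat3dm stroma and 5.37, 5.30 and 5.14 in Stat3dm tumor, against 5.88, 5.59 and 5.80 in Stat3wt stroma and 5.04, 4.87 and 4.67 in Stat3wt tumor. Erg and Ets1 also had no overlap between 6 stroma and 6 tumor arrays, which held for 0.721% of all genes in that direction and for 0 of the 10 vessel genes. Their differences were 0.66 (adjusted p = 0.0312) for Erg and 0.65 (adjusted p = 0.0357) for Ets1 in limma. With each of the 12 arrays left out in turn, Klf2 passed in 7 fits, Erg in 5 and Ets1 in 4, with adjusted p-values up to 0.0823, 0.0941 and 0.106. Klf2 and Ets1 are also expressed by T cells, and 8 of 8 tested leukocyte genes had a higher mean in stroma with a median of 1.09 and 7 called. The part of leukocytes in these results was not tested.

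Erg and Ets1 bind DNA with a GGAA core. Promoter sequences were held for 5 of the 10 genes (Eng, Kdr, Flt1, Tek and Emcn) in a table made from RefSeq on GRCm38.p6, each from 250 bases before the start of the gene to 50 after it. Those of 3 genes are shown because they belong to the gene that passed the test and to both VEGF receptors, written in the direction of transcription. Capitals mark AGGAAG or CGGAAG, or their reverse complements CTTCCT and CTTCCG.
Eng, chr2:32646345-32646644, plus strand: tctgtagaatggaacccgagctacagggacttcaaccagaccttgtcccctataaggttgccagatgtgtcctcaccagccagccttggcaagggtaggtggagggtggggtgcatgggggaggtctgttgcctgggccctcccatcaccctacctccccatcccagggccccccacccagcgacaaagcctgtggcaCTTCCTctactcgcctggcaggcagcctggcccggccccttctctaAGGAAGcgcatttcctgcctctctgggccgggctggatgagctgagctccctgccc
Flt1, chr5:147725962-147726261, minus strand: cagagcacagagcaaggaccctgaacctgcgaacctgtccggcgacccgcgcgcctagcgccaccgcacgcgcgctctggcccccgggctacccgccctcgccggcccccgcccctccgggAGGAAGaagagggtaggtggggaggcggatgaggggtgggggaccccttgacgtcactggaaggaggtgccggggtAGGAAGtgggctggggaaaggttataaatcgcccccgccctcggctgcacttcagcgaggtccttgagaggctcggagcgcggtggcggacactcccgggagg
Kdr, chr5:75978406-75978705, minus strand: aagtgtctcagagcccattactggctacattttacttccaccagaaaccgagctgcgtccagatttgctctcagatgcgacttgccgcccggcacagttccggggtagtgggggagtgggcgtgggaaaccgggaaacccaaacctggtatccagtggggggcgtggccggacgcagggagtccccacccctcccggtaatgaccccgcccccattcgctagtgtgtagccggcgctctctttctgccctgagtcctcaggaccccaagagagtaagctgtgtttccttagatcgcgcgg
The window of Eng and that of Flt1 held 2 matches each, that of Emcn also 2, and those of Kdr and Tek none. Other words with a GGAA core were not counted, and the Kdr and Tek windows hold some too. At least 1 match stood in 46.5% and at least 2 in 15.9% of the 32851 promoters of this length in the table. A match is a description of the letters and not a measured binding site.

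Of the VEGF ligands and their other receptors, 6 of 7 tested genes had a higher mean in stroma over both genotypes, with a median of 0.17 and 0 called. Flt4, the VEGF receptor of lymphatic endothelium, had a difference of 0.62 (adjusted p = 0.199) and the co-receptor Nrp1 one of 0.55 (adjusted p = 0.0816) in limma. The ligand Vegfa had -0.17 (adjusted p = 0.725 in limma). Among angiopoietins, Tie1 and Notch pathway genes, 9 of 11 lay above 0, with a median of 0.04 and 0 called. Tie1, an orphan receptor related to Tie2, had 0.56 (adjusted p = 0.165), and Hey2, a Notch target of arteries, had 0.50 (adjusted p = 0.103) in limma.

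A further 27 endothelial genes were tested, and 26 had a higher mean in stroma over both genotypes, with a median of 0.33 and 0 called. Calcrl, a receptor for adrenomedullin on endothelium, had the largest difference of that list, 0.90 (adjusted p = 0.0615 in limma). Ecscr was the exception, at -0.51 (adjusted p = 0.0736 in limma). The mean of this list followed the mean of the 10 vessel genes, each scaled over the arrays, with r = 0.975 over the 12 arrays, and 0.969 after the group means were taken away. These coefficients are descriptions over 12 arrays that share their tissue and genotype groups.

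Lymphatic genes gave a mixed picture. Of 7 tested, 6 had a higher mean in stroma, with a median of 0.52 and 0 called, led by the scavenger receptor Stab1 (0.81, adjusted p = 0.113 in limma) and the matrix protein gene Mmrn1 (0.62, adjusted p = 0.103 in limma). Prox1, the transcription factor that sets lymphatic identity and that colorectal tumor cells can also express, stood on the other side. It had 5.34, 6.24 and 5.61 in Stat3dm stroma and 4.85, 7.16 and 7.74 in Stat3dm tumor, against 6.01, 7.87 and 7.65 in Stat3wt stroma and 8.45, 8.40 and 9.46 in Stat3wt tumor. Its difference was -1.22 (adjusted p = 0.128 in limma), opposite in sign to that of Lyve1. The 3 Stat3wt tumor arrays were above all other arrays.

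Adhesion molecules through which endothelium captures leukocytes had 7 of 9 tested genes above 0, with a median of 0.38, 1 called higher and 1 called lower. Selp, or P-selectin, which starts the rolling of leukocytes and is also stored in platelets, had 6.12, 6.45 and 5.93 in Stat3dm stroma and 4.67, 5.20 and 5.05 in Stat3dm tumor, against 6.78, 5.34 and 6.54 in Stat3wt stroma and 5.25, 5.07 and 5.02 in Stat3wt tumor. The 6 stroma arrays all exceeded the 6 tumor arrays, and the difference was 1.15 (adjusted p = 0.0283 in limma). F11r, a junction protein that epithelium expresses as well, was lower in stroma by a difference of -0.78 (adjusted p = 0.0464 in limma). Selp passed in 6 of the 12 fits with an array left out and F11r in 3, with adjusted p-values up to 0.0868 and 0.135.

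Pericytes and smooth muscle wrap the vessel from outside. All 11 tested genes of these cells had a higher mean in stroma over both genotypes, with a median of 0.45 and 0 called. The pericyte marker Rgs5 had 1.02 (adjusted p = 0.116) and Notch3, the Notch receptor of mural cells, 0.59 (adjusted p = 0.0830) in limma. Fibroblast genes stood beside them, with 12 of 13 above 0, a median of 0.65 and 4 called. The mean of the fibroblast list was 7.24, 8.25 and 7.75 in Stat3dm stroma and 6.88 to 7.19 in Stat3dm tumor, against 7.33, 7.64 and 8.45 in Stat3wt stroma and 6.93 to 7.51 in Stat3wt tumor. Among the stroma arrays it was lowest in Stat3dm stroma 1 and highest in Stat3wt stroma 3, as were most of the vessel genes. How far the vessel differences follow the share of stroma in each cut was not tested.

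**Figure D3:**
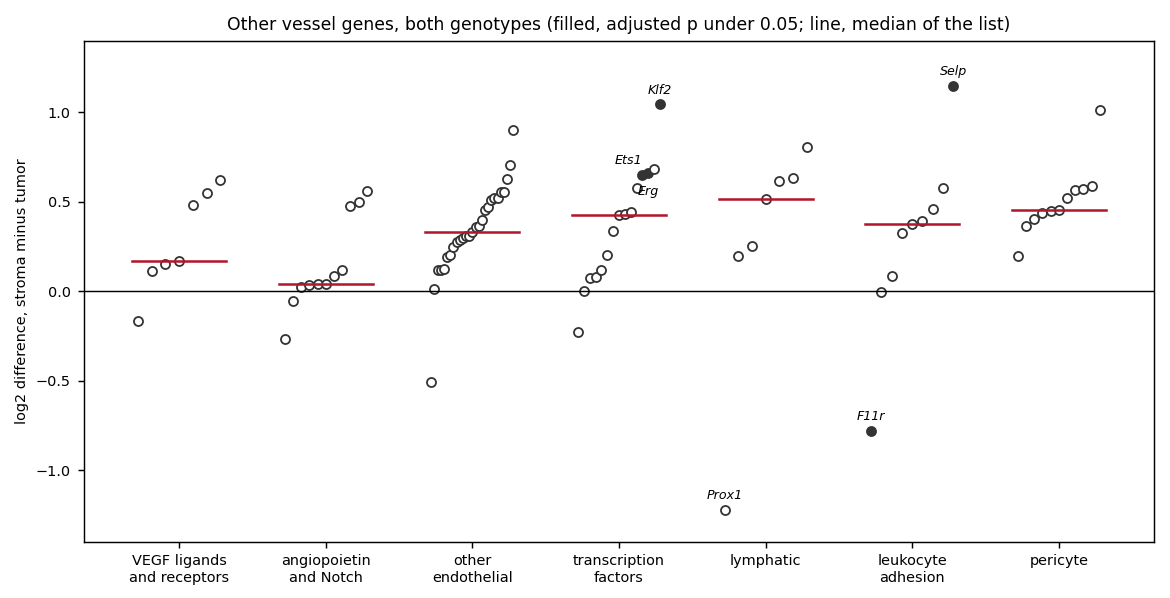
Log2 difference, stroma minus tumor over both genotypes (vertical axis), of the tested genes of 7 further vessel lists (horizontal axis), 1 point a gene, with the median of each list as a line. Filled points have an adjusted p under 0.05: Klf2, Erg, Ets1 and Selp are above 0 and F11r below it.

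The effect of the myeloid deletion was then read within each tissue. In stroma 8 of the 10 vessel genes had a lower mean in Stat3dm mice, with differences from -0.43 for Vwf to 0.14 for Pecam1. Of all tested genes 47.2% lay above 0. The median over the 9 tested genes was -0.17, against -0.02 for all genes. Limma called 0 of the 9 and 0% of all genes. At an unadjusted p under 0.05 there were 0 of the 9 and 844 of all genes, and the adjusted p of each tested vessel gene was 0.999. Vwf averaged 5.93 ± 0.42 in Stat3dm stroma and 6.36 ± 0.24 in Stat3wt stroma (SD, n = 3 each), a difference of -0.43 ± 0.22 (SE; interval -0.91 to 0.05). It was the 1 gene of the 10 whose arrays did not overlap, against 5.62% of all genes in that direction and 5.13% in the other. The highest Stat3dm stroma array of Vwf, at 6.197, and the lowest Stat3wt stroma array, at 6.219, nearly met. Eng averaged 7.13 ± 0.31 in Stat3dm stroma and 7.53 ± 0.45 in Stat3wt stroma (SD, n = 3 each), with an interval of the difference from -0.93 to 0.12. Pecam1, at 6.84 ± 0.46 in Stat3dm stroma and 6.70 ± 0.54 in Stat3wt stroma, had a higher mean in the deletion. So did Kdr, at 5.75 ± 0.41 in Stat3dm stroma and 5.64 ± 0.19 in Stat3wt stroma (SD, n = 3 each).

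These values leaned on a single array on each side. Without Stat3dm stroma 1, the array that overlapped tumor in epithelial genes, the median difference was -0.02. Vwf was then at -0.19, Eng at -0.24 and Plvap at -0.02, and Cdh5 turned to 0.03 and Lyve1 to 0.06. Without Stat3wt stroma 3 the median was -0.05, with Vwf at -0.29, Eng at -0.15 and Plvap at -0.09. Cdh5 turned to 0.04 and Emcn to 0.21.

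The other vessel lists differed in sign in stroma. The VEGF ligands and receptors had 4 of 7 above 0 and a median of 0.02, the leukocyte adhesion genes 4 of 9 and -0.05, and 0 of each list were called. Angiopoietin and Notch genes had 3 of 11 above 0 (median -0.20), transcription factors 4 of 15 (median -0.12) and lymphatic genes 3 of 7 (median -0.14), with 0 called. The genotypes did not overlap for 3 transcription factors that were lower and 1 that was higher, Klf2, at 0.59 (adjusted p = 0.943 in limma). They were also apart for 1 angiopoietin or Notch gene, lower, and 1 adhesion gene, higher. The VEGF and lymphatic lists had 0. Of all genes 5.13% were apart and higher and 5.62% apart and lower. Of the further endothelial genes 8 of 27 were above 0, with a median of -0.16 and 0 called. Of them 4 did not overlap between the genotypes, all lower, a pattern that 5.62% of all genes showed. These were Gja5 and Nos3, named after their values were seen, Thbd, the anticoagulant receptor thrombomodulin, at -0.96 (adjusted p = 0.684 in limma), and Robo4, a guidance receptor of endothelium, at -0.53 (adjusted p = 0.977 in limma). Thbd had 4.84, 6.10 and 5.92 in Stat3dm stroma, against 6.36, 6.46 and 6.90 in Stat3wt stroma. With single arrays left out its difference in stroma ran from -1.20 to -0.57. The lower Thbd was not particular to stroma. In tumor it ran from 4.78 to 5.62 in Stat3dm mice and from 5.88 to 6.34 in Stat3wt mice, again without overlap. Robo4 averaged 4.76 in Stat3dm tumor and 4.77 in Stat3wt tumor. Of the 27 further endothelial genes 0 were called between genotypes in tumor. In stroma, pericyte genes had 0 of 11 above 0, with a median of -0.33 and 0 called, and 1 of them did not overlap between the genotypes. Leukocyte genes ran the other way, with 8 of 8 above 0 and a median of 1.03, and 0 of them called. The mean of the leukocyte list was 7.26, 7.68 and 7.26 in Stat3dm stroma, above the 5.92, 6.23 and 6.90 of Stat3wt stroma. The part of this larger leukocyte signal in the vessel values was not tested. Icam1, which binds leukocytes and is induced on inflamed endothelium, had a difference of 0.52 (adjusted p = 0.869 in limma). It was the adhesion gene whose arrays were apart. Its lowest Stat3dm stroma array, at 6.679, and its highest Stat3wt stroma array, at 6.674, nearly met.

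**Figure D4:**
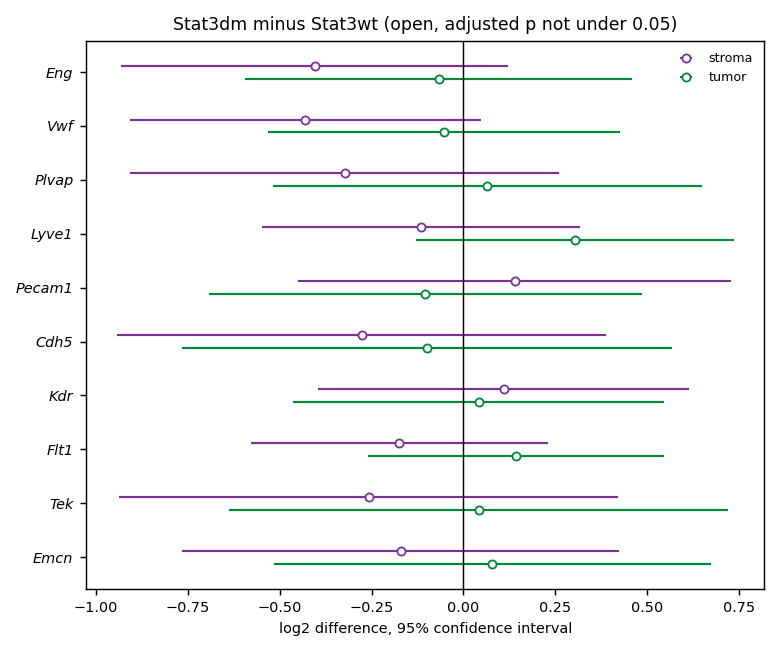
Log2 difference, Stat3dm minus Stat3wt (horizontal axis), of the 10 vessel genes in stroma and in tumor, as points with 95% confidence intervals. Each interval contains 0, and 8 of the 10 stroma points lie below 0.

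In tumor the 10 differences between genotypes ran from -0.10 for Pecam1 to 0.30 for Lyve1, and 6 were above 0, against 48.7% of all tested genes. Limma called 0 of the 9 tested vessel genes, against 3 genes of 16635 (0.018%), all lower. At an unadjusted p under 0.05 there were 0 of the 9 and 1042 of all genes. The adjusted p-values of the vessel genes ran from 0.823 to 0.973. Lyve1 averaged 5.58 ± 0.13 in Stat3dm tumor and 5.27 ± 0.17 in Stat3wt tumor (SD, n = 3 each), and its interval, from -0.13 to 0.74, contained 0. For none of the 10 genes were the arrays of the 2 genotypes apart, against 4.05% of all genes apart with the deletion higher and 5.46% with it lower. With the sample number as a block limma called 83 genes in tumor and 0 of the 9 vessel genes.

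The order of the groups was similar across the 10 genes. Both stroma means lay above both tumor means in 10 of 10. Stat3dm stroma was highest in 2, Pecam1 and Kdr, and Stat3wt stroma in 8. Stat3dm tumor was lowest in 4 and Stat3wt tumor in 6. The test separated neither the 2 stroma groups nor the 2 tumor groups for any of the 9 genes tested. Single arrays stood out in the same way from gene to gene. Stat3dm stroma 1 held the lowest value of the 6 stroma arrays in 8 genes, Flt1 and Emcn being the exceptions. Stat3wt stroma 3 held the highest value of all 12 arrays in 8 genes and of its own group in 10.

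The 10 genes varied together over the arrays. Among their 45 pairs the median r was 0.76 (0.24 to 0.97), and 45 were above 0. With the group means taken away the median was 0.61 (-0.11 to 0.93) and 44 were above 0. Plvap had the highest median r with the others, 0.844, and Emcn the lowest, 0.540. These are descriptions over 12 arrays that share their groups and each array's own makeup.

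The genes most like the mean of the 10, among 14685 searched by r over the 12 arrays, were Calcrl, Igfbp5, Fbln2, Ehd2, Bgn, Hspg2, Fgfr1 and Tcf21. Calcrl had r = 0.961 (0.926 with the group means taken away), Igfbp5, a binding protein of insulin-like growth factors, had 0.955 (0.877), and Fbln2, an extracellular matrix protein, had 0.945 (0.879). Calcrl is itself an endothelial gene of the lists. Of the 8, 4 passed the tissue test over both genotypes, Igfbp5, Fbln2, Ehd2 and Bgn, with differences of 1.22, 0.98, 0.71 and 0.99 (adjusted p = 0.0392, 0.0379, 0.0370 and 0.0484 in limma). Each of these 4 passed in 4 of the 12 fits with an array left out. The 8 were picked by r over these same arrays, stroma and tumor together. A higher level of the 8 in stroma thus follows in part from that choice and is no separate support. Hspg2, the basement membrane protein perlecan, had a smaller difference of 0.47 (adjusted p = 0.178 in limma) and an r of 0.953 with the group means taken away.

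**Figure D5:**
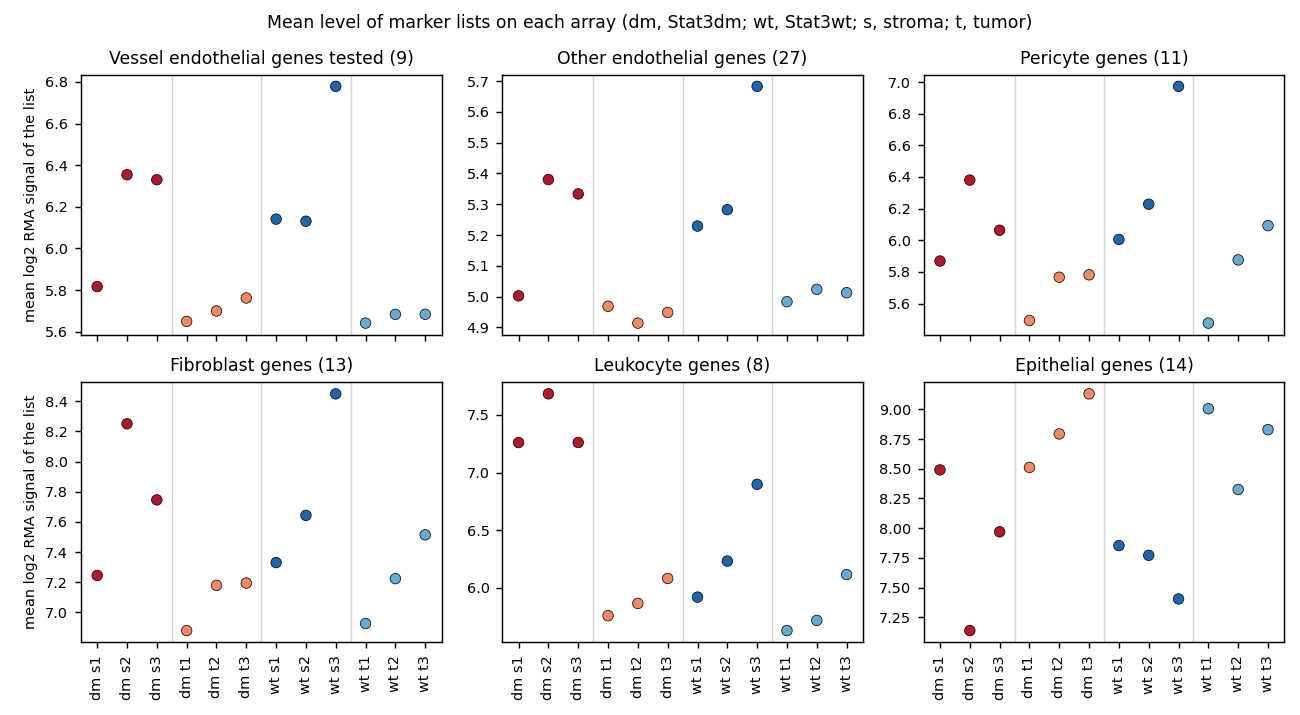
Mean log2 level (vertical axes) of the tested vessel genes and of 5 cell type lists on each of the 12 arrays, grouped as Stat3dm stroma, Stat3dm tumor, Stat3wt stroma and Stat3wt tumor. The vessel mean is 5.82, 6.35 and 6.33 in Stat3dm stroma and 5.65 to 5.76 in Stat3dm tumor, against 6.13 to 6.78 in Stat3wt stroma and 5.64 to 5.68 in Stat3wt tumor.

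Over the 12 arrays the scaled mean of the 10 vessel genes followed fibroblast genes with r = 0.904, pericyte genes with 0.892, macrophage genes with 0.786 and leukocyte genes with 0.647, and ran against epithelial genes with r = -0.838. With the group means taken away these were 0.875, 0.820, 0.800, 0.744 and -0.547. For platelet genes r was 0.418, and -0.118 with the group means taken away.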

How the data were processed

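Expression was measured on 12 single-colour Affymetrix arrays, 1 a sample. The submitters' processing notes name RMA (robust multi-array average) and, as software, Affymetrix Expression Console 1.3.1. The authors deposited its log2 values for 41345 probe sets. RMA evens out the distribution of probes between arrays, so values are relative within the series, and values of different probe sets were not set against each other. No source used here names the genome build of the probes or how captured areas were chosen.

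Probe sets were named through the supplied platform annotation, which gave 1 symbol for 23521 of them, several for 1814, and did not list 16010. The probe set with the highest mean stood for a gene. Of 22180 genes the dimmest 25%, with a mean log2 value of up to 3.65, were left out. The other 16635 were fitted in limma 3.58.1 (R 4.3.3) with 4 group means over all 12 arrays and eBayes, and p-values were Benjamini-Hochberg adjusted within each comparison at 0.05. All tests were two-sided, and the fit was tested on simulated data. The comparisons were stroma minus tumor in each genotype and over both, Stat3dm minus Stat3wt in each tissue, and the interaction.

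The 10 genes and the 13 other lists (161 names, 148 with a named probe set, 141 tested) were chosen with earlier results of these data known. Beside the 10 genes and Stat3, the text names a part of those taken by a rule: in each list the genes that passed a comparison, or otherwise the 2 with the smallest p in stroma minus tumor over both genotypes and the 2 with the smallest p in Stat3dm minus Stat3wt in stroma, and the 8 genes most like the mean of the 10.

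Samples are numbered 1 to 3 within a group, and the labels do not say that a number marks 1 mouse. Deviations from the group means correlated between same-numbered samples at 0.12, 0.16 and 0.30 for Stat3dm stroma with Stat3dm tumor. For Stat3dm tumor with Stat3wt tumor the values were 0.32, 0.15 and 0.69. All of these lay above a limit of 0.1. For Stat3wt stroma with Stat3wt tumor the values were 0.44, -0.00 and 0.51, and for Stat3dm stroma with Stat3wt stroma 0.15, -0.04 and 0.11, not all above that limit. Samples of unlike number passed the limit too, at 0.12 for Stat3dm stroma 2 with Stat3dm tumor 1 and 0.59 for Stat3dm tumor 1 with Stat3wt tumor 2. The other unlike pairs of those comparisons were below 0.1. Stat3dm and Stat3wt samples come from different mice, so a number cannot mark 1 mouse across genotypes. Pairing by number was thus not shown. Alternatives covered the filter, probe set choice, scaling, array weights and spread, the moderation, the block, and each array left out.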

Additional observations from a re-analysis of the deposited data

How the results depend on the processing

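The stroma minus tumor differences of the 9 tested vessel genes were above 0 in each genotype and over both under every alternative run that held them. Tek was fitted only with no filter on dim genes, so this does not cover it. In Stat3dm mice Tek had 2.88, 3.64 and 4.15 in stroma and 3.01, 3.78 and 3.28 in tumor. Its direction there leaned on Stat3dm stroma 3. Over both genotypes the number of vessel genes called, 4 of 9, was 2 with no filter on dim genes and with a trend in eBayes, 0 with arrays centred on their median and without the 2 widest arrays, 5 after quantile normalization, 3 with the SD of the array as a covariate, 8 with array weights, whose estimation stopped before it converged, and 0 to 6 with single arrays left out. The count over all genes, 425, was then 168 (centred), 264 (covariate), 3834 (weights), 0 (without the widest) and 0 to 1296 (single arrays out). With the replicate block it was 1876 (fixed, 6 vessel genes) and 1648 (random, 6 vessel genes), Pecam1 and Kdr being added.

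In Stat3dm mice 0 genes were called, against 33 after quantile normalization, 727 with weights (2 vessel genes), 114 with the covariate, 152 and 62 with the replicate block fixed and random, and 0 to 22 with single arrays left out, where the vessel median, 0.50, ran from 0.36 to 0.73. In Stat3wt mice 0 became 3963 with weights (7 vessel genes), 138 and 5 with the replicate block fixed and random, and 0 to 8 with single arrays left out, and the vessel median, 0.60, was 0.85 with the covariate. Same-numbered Stat3wt samples, and those of the 2 genotypes in stroma, did not all pass the limit of 0.1. Pairing by number was shown for no comparison. Between genotypes in stroma 0 became 1 after quantile normalization, 164 with weights, 13 with the covariate, 15 with the fixed replicate block and 0 to 2 with single arrays left out. In tumor 3 became 5 with more dim genes left out and with the trend, 1579 with weights, 14 with the covariate, 83 with the fixed replicate block and 0 to 7 with single arrays left out. The interaction had 4 genes with weights, and its vessel median, -0.32, ran from -0.44 to -0.080 with single arrays left out. In the comparisons between genotypes and the interaction 0 of 9 vessel genes were called under every alternative run.

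Small differences changed sign, none with an adjusted p under 0.05. Between genotypes in tumor, quantile normalization gave 0.089 for Eng, 0.0041 for Vwf, 0.022 for Pecam1 and 0.0098 for Cdh5, and centring gave -0.0064 for Kdr. The covariate gave 0.15 for Eng, 0.0014 for Vwf, 0.10 for Pecam1 and 0.046 for Cdh5 there, and -0.052 for Kdr in the interaction. Weights gave 0.19 for Cdh5 and 0.0012 for Emcn in stroma, 0.027 for Vwf, -0.061 for Plvap, 0.061 for Cdh5 and -0.21 for Emcn in tumor, and 0.13 for Cdh5, -0.14 for Kdr and 0.21 for Emcn in the interaction. Without the 2 widest arrays Plvap was -0.096 and Cdh5 0.0067 in tumor. With single arrays left out, the stroma values ran from -0.27 to 0.055 for Lyve1, -0.58 to 0.035 for Cdh5, -0.058 to 0.34 for Kdr, -0.033 to 0.45 for Pecam1 and -0.37 to 0.21 for Emcn. Tumor values ran from -0.18 to 0.056 for Eng, -0.068 to 0.22 for Emcn, -0.12 to 0.22 for Kdr, -0.061 to 0.18 for Plvap, -0.18 to 0.0026 for Pecam1 and -0.25 to 0.025 for Cdh5. Interaction values ran from -0.49 to 0.13 for Cdh5, -0.11 to 0.30 for Kdr and -0.45 to 0.14 for Emcn. Of list genes over both genotypes, Vegfa turned to 0.054 and Pdgfra to 0.15 after quantile normalization, Ppbp to -0.33 with weights, Jag2 to 0.17, Robo4 to -0.042, Ppbp to -0.0017, Slc4a1 to -0.030 and Pdgfra to 0.36 with the covariate, and Robo4 to -0.0086 and Pdgfra to 0.079 without the widest arrays. With single arrays left out these ran from -0.18 to 0.12 for Jag2, -0.22 to 0.16 for Pdgfra and -0.47 to 0.068 for Vegfa. The cause of these changes was not tested. A fit on only the arrays compared applies to neither the comparison over both genotypes nor the interaction, which use all 12.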
